A study of Saccharomyces cerevisiae with 11 samples.

Results

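The genes described here are RPN4 and 31 genes for subunits of the proteasome in the budding yeast Saccharomyces cerevisiae. The members were given as a list of standard names, and all 32 were found in the table of 7035 usable features. By the part of the complex that they encode, 7 are alpha and 7 are beta subunits of the 20S core particle, 6 are ATPases of the 19S regulatory particle, and 11 are other subunits of the 19S particle. The last member, RPN4, encodes the transcription activator of the other members. RPN2 and SEM1, which encode further 19S subunits, were not on the list and are described with the genes of the pathway.

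The study compared alleles of SCC2, the gene of the cohesin loader subunit Scc2, carried on a pRS413 plasmid in 4 groups of yeast cultures. The R787G group (3 cultures) carried pRS413-scc2-R787G-7MYC-HIS, the G1242V group (3 cultures) pRS413-scc2-G1242V-7MYC-HIS, the empty-vector group (2 cultures, labelled null) pRS413-HIS with no SCC2 insert, and the WT group (3 cultures) pRS413-SCC2-7MYC-HIS. In every group, WT included, the chromosomal copy was the degron allele SCC2-AID*-6FLAG-HYG, the auxin receptor OsTIR1 was expressed from the ADH1 promoter (pMK200, URA3) at ura3-1, and the strain was W303 of mating type MATa with mutant alleles of its marker genes ADE2, HIS3, LEU2, TRP1 and CAN1. All cultures grew in SD-HIS and received 1 mM of the auxin IAA for the last 9 h. The auxin degron works through ubiquitin and the proteasome, in all 4 groups alike. In the groups other than the empty vector, the plasmid thus carried the copy without a degron. Whether a group's cultures go back to different transformants is not in the labels, so the p-values speak of the spread between these cultures, which may be technical.

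SCC2 itself averaged 113 ± 17.0 scaled TPM in R787G, 90.4 ± 10.7 in G1242V, 23.2 ± 0.988 in the empty vector and 112 ± 12.9 in WT (SD, n = 3, 3, 2 and 3). The a-cell genes STE2, MFA2, AGA2, STE6, MFA1 and BAR1 had at their lowest 122, 162, 89.7, 55.7, 40.8 and 17.7 scaled TPM. The alpha-cell genes STE3, MFALPHA1 and MFALPHA2 were at 11.9 or less. TPM hold no read depth, so counting error is unknown. The rRNA features took 9.17% of TPM in WT replicate 2, and 0.182% to 0.525% in the other 10 libraries. Ribosomal protein genes took 12.6% to 13.8% of TPM in R787G, 7.75% to 11.9% in G1242V, 6.80% and 6.82% in the empty vector and 1.95% to 2.54% in WT, and since TPM are shares of a library, values here were scaled by the median ratio over 5221 genes. What part these differences have in the results was not tested.

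The proteasome is the protease that degrades ubiquitin-tagged proteins in the cytosol and nucleus. Its 20S core is a barrel of rings, in which the outer alpha rings form the gate and the inner beta rings carry the peptidase sites. The 19S particle binds the ubiquitin chain, removes it, unfolds the substrate with a ring of ATPases and feeds it into the core. Yeast makes the subunits in step through Rpn4, which binds the proteasome-associated control element (PACE) in their promoters. Rpn4 is itself a short-lived proteasome substrate, which closes a feedback loop: when proteasomes are scarce, Rpn4 accumulates and the subunit genes are transcribed more. RPN4 transcription is raised in turn by the stress activators Hsf1, Yap1, Pdr1 and Pdr3.

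The PACE letters GGTGGCAAA occurred in the 300 bases before the start codon of 26 of the 32 members, read on both strands of the RefSeq R64 genome (the sacCer3 assembly). Of 6001 promoters of the same length, 73 (1.22%) held them, the 26 members included. PRE5, PUP1, RPN8, RPN10, RPN13 and RPN4 had no match. The shorter letters GGTGGCAA occurred in the same number of members, 26, and in 98 promoters (1.63%). The motif ended 75 to 174 bases before the start codon, with a median of 113, and lay on the strand of the gene in 18 promoters and on the opposite strand in 8. The windows below are printed 5′ to 3′ on the strand that reads the motif, which stands in capitals. RPT1, PUP2, PRE3 and PUP3 are shown because they fell in R787G, in G1242V and in the empty vector under every scaling, RPT2, RPN5 and RPN9 because they were higher in the empty vector than in WT, and PRE9 and PRE7 because they passed in the fewest comparisons with WT.
RPT1, chrXI:174043-174081, opposite strand of the gene, 146 bases before the start codon: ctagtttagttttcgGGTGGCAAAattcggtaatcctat
PUP2, chrVII:999221-999259, strand of the gene, 95 bases: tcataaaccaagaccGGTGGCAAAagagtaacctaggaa
PRE3, chrX:435030-435068, strand of the gene, 109 bases: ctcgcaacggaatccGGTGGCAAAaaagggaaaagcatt
PUP3, chrV:349506-349544, strand of the gene, 174 bases: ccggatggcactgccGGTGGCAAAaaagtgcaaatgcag
RPT2, chrIV:437901-437939, strand of the gene, 122 bases: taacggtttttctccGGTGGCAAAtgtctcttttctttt
RPN5, chrIV:190771-190809, strand of the gene, 129 bases: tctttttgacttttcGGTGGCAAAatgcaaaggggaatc
RPN9, chrIV:1322081-1322119, strand of the gene, 100 bases: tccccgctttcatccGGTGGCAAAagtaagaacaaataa
PRE9, chrVII:761218-761256, strand of the gene, 150 bases: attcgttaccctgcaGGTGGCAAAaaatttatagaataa
PRE7, chrII:141145-141183, strand of the gene, 78 bases: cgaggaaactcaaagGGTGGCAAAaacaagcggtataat
The windows were chosen by these 9 letters, so that they share them is no result. The flanks differed from gene to gene.

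In cells with SCC2-R787G or SCC2-G1242V, nearly the whole proteasome gene set was lower than in WT. By limma on log2(scaled TPM + 1), with Benjamini-Hochberg adjustment over 6432 features and a threshold of 0.05, 29 of the 32 members were lower in R787G than in WT, 0 were higher and 3 did not pass. Over all features tested, 29.3% were lower and 36.5% higher in R787G than in WT. The members' median log2 difference was -0.43, against 0.07 over all features. In G1242V, 31 of the 32 members were lower than in WT, 0 were higher, and PRE9 alone did not pass, where 27.3% of all features were lower and 26.6% higher. No member was higher in either variant at an unadjusted p under 0.05. The median was -0.61 for the members and 0.00 for all features. Of these calls, 28 of 29 in R787G and 31 of 31 in G1242V held under each of 23 alternatives of scaling, filter, model and left-out library, and RPN5 in R787G was the exception.

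The empty vector gave a mixed picture. 17 members were lower than in WT, 3 (RPN5, RPN9 and RPT2) were higher and 12, RPN4 among them, did not pass, where 25.2% of all features were lower and 36.8% higher. The median was -0.22 for the members and 0.09 for all features. This count depends on the scaling: with TPM as deposited 6 members were lower and 5 higher, and with TPM rescaled to the sum of nuclear protein-coding genes 5 were lower and 5 higher. Those scalings moved the median of all features to 0.31 and 0.35, and the share of higher calls among all calls to 78.3% and 80.7%, against 59.3% with the scaling used here. PRE5, PUP2, PRE3, PUP3 and RPT1 were lower under every alternative. RPN5, RPN9 and RPT2 were higher under every scaling, but none of the 3 passed without empty-vector replicate 1 (adjusted p = 0.0639, 0.0564 and 0.11 by limma) or without empty-vector replicate 2 (adjusted p = 0.0656, 0.147 and 0.132). An F test over the 4 groups called 31 of the 32 members, all but PRE9, where it called 86.3% of all features.

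**Figure D1:**
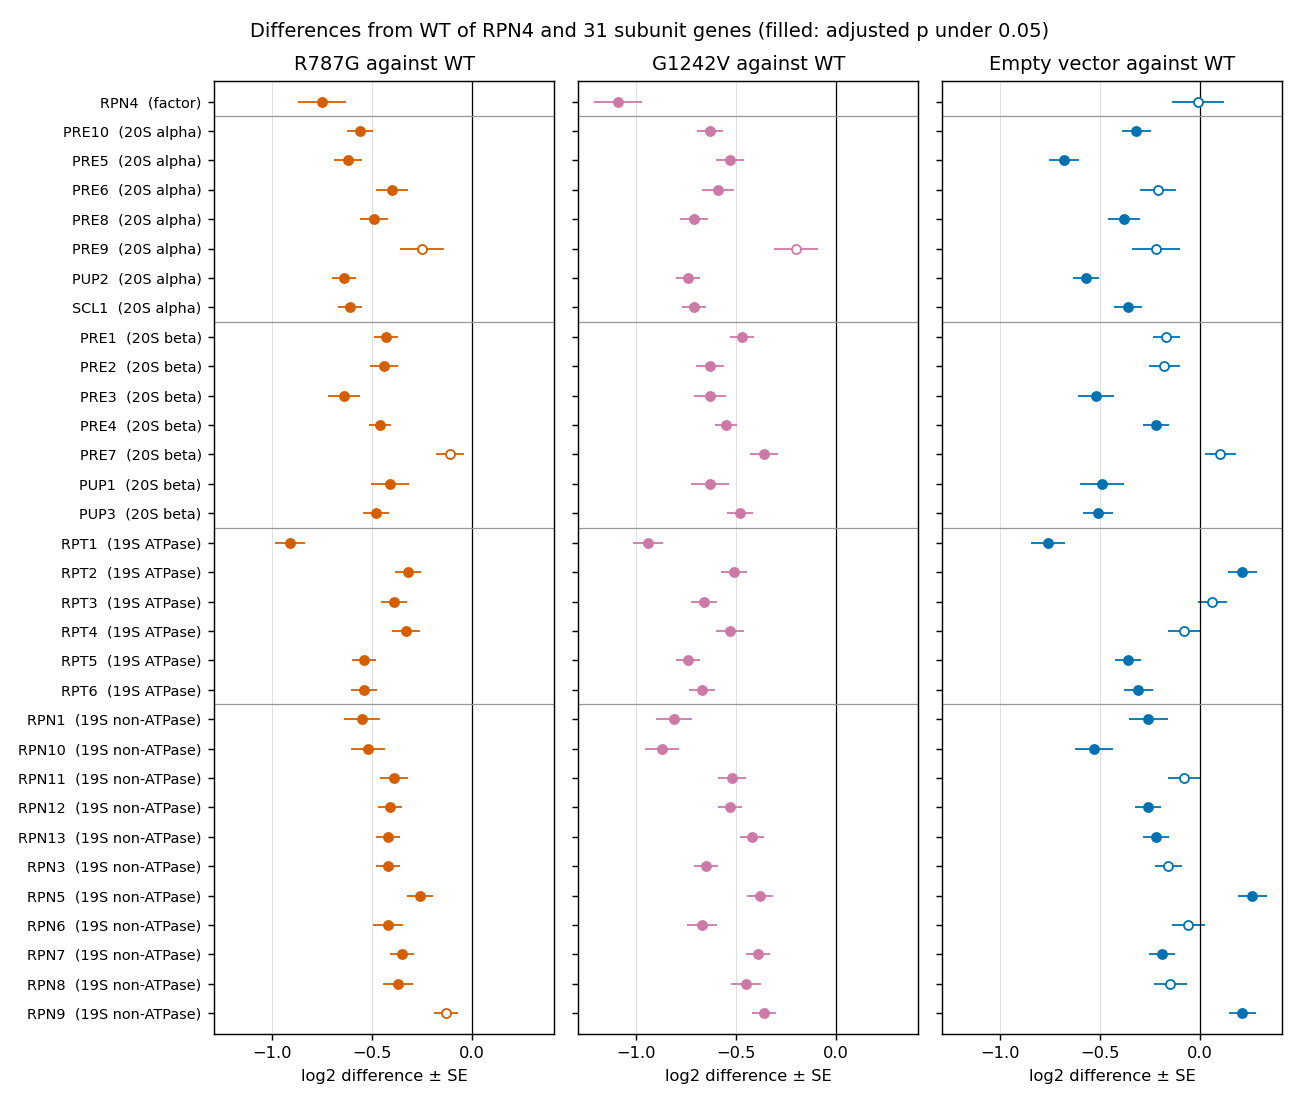
Log2 differences from WT (x axis, bars are the SE of the limma fit) of RPN4 and 31 subunit genes (rows, by class) in R787G, G1242V and the empty vector. Filled points have an adjusted p under 0.05: 29, 31 and 20 genes are filled, and 3 of those in the empty vector lie right of 0.

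RPN4 was the member that fell most in G1242V. Its scaled TPM were 188, 196 and 183 in R787G, 132, 147 and 171 in G1242V, 319 and 315 in the empty vector, and 303, 378 and 284 in WT. Both variant groups lay wholly below the empty vector and WT, whose values overlapped. The means were 189 ± 6.24 in R787G, 150.2 ± 19.6 in G1242V, 317 ± 2.87 in the empty vector and 321 ± 49.6 in WT (SD, n = 3, 3, 2 and 3). RPN4 fell 1.69-fold in R787G against WT (log2 difference -0.75 ± 0.12 SE, adjusted p = 2.94e-04 by limma) and 2.13-fold in G1242V against WT (-1.09 ± 0.12, adjusted p = 4.13e-05). Between the empty vector and WT the difference was -0.01 ± 0.13 (adjusted p = 0.96). WT replicate 2, the library with the highest rRNA share, was also the WT library with the most RPN4 message.

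RPN4 was also lower in each variant than in the empty vector. The log2 difference was -0.74 ± 0.13 for R787G against the empty vector (adjusted p = 0.00224 by limma) and -1.08 ± 0.13 for G1242V against the empty vector (adjusted p = 9.33e-05). Both calls held under all 23 alternatives. R787G was above G1242V by 0.34 ± 0.12 (adjusted p = 0.0377), a call that was lost under 8 of the 23 alternatives, where the adjusted p ranged from 0.0112 to 0.125.

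RPN4 can be set against the subunit genes inside each library, where the scaling has nearly no part. The log2 level of RPN4 minus the mean of the 31 subunit genes was -0.75, -0.73 and -0.75 in R787G, -1.10, -1.01 and -0.73 in G1242V, -0.19 and -0.22 in the empty vector, and -0.55, -0.18 and -0.57 in WT. RPN4 was thus below the subunit mean in all 11 libraries, and furthest below it in the variants. The R787G and G1242V libraries all lay below every empty-vector and WT library, while WT replicate 2 lay with the empty vector. No test was run on these ratios.

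**Figure D2:**
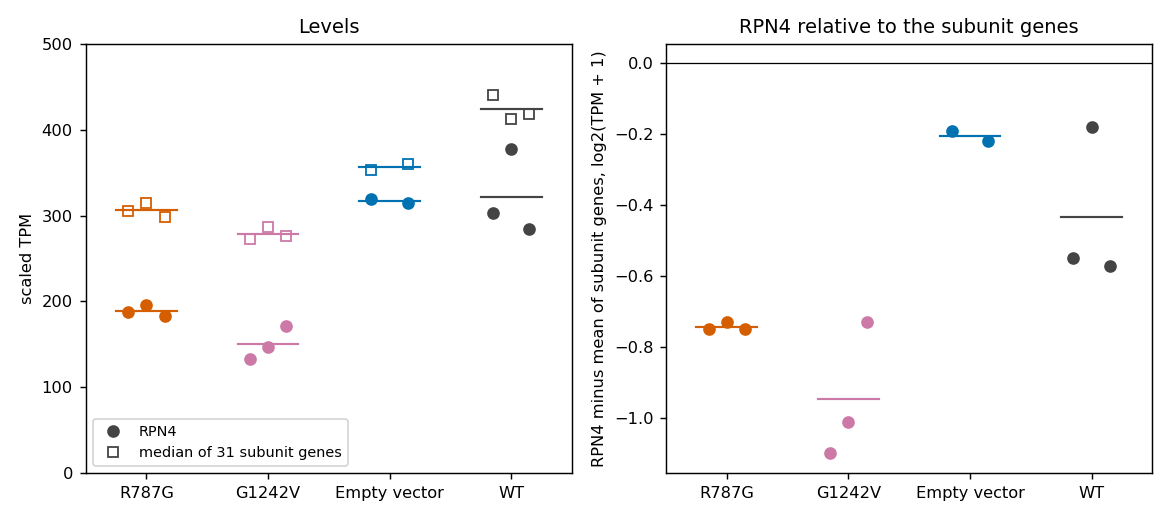
Left: scaled TPM of RPN4 (filled circles) and the median of the 31 subunit genes (open squares) in each library, by group; right: RPN4 minus the mean of the subunit genes on the log2(TPM + 1) scale in each library. Lines are group means; RPN4 is below the subunit median in every library, and lowest in G1242V.

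The RPN4 promoter held no PACE letters. The Yap1 element TTACTAA was found 367 bases before the RPN4 start codon, within a window of 600 bases, and is shown because Yap1 is one of the activators of RPN4.
RPN4, chrIV:417061-417097, strand of the gene: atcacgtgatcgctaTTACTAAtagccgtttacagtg
The capitals mark the element. Of 5999 windows of 600 bases, 820 (13.7%) held these 7 letters on either strand. The Pdr element letters TCCGCGGA were in 45 windows (0.75%) and had no match in the one of RPN4. Only these exact letters were searched, so variants of the element would not have been found.

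As a group, the subunit genes were among the more abundant messages. Their median in WT was 435.9 scaled TPM, at percentile 95.3 of all features tested, whose median was 44.6. The median of the 31 genes was 306 ± 8.5 scaled TPM in R787G, 279 ± 7.5 in G1242V, 356 ± 4.4 in the empty vector and 424 ± 15 in WT (SD, n = 3, 3, 2 and 3). Their summed share of protein-coding TPM was 1.41%, 1.43% and 1.32% in R787G, 1.13%, 1.24% and 1.18% in G1242V, 1.90% and 1.92% in the empty vector, and 1.86%, 1.92% and 1.77% in WT. The variant libraries all had smaller shares than any empty-vector or WT library, and the empty-vector shares lay within the WT range.

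The subunits stayed close to one another in level. Within 1 library the most abundant subunit message exceeded the least abundant 2.64-fold to 4.06-fold, and 29 to 31 of the 31 subunit genes lay within 2-fold of their median. PRE1, a structural beta subunit, was the most abundant in each library, at 634, 641 and 607 scaled TPM in R787G, 599, 618 and 606 in G1242V, 739.7 and 763 in the empty vector, and 864, 808 and 859 in WT. RPN10, a ubiquitin receptor, was the least abundant in 9 of the 11 libraries, with 198, 219 and 199 scaled TPM in R787G, 158, 176 and 149 in G1242V, 213 and 195 in the empty vector, and 307, 307 and 269.9 in WT. The order of the 31 group means had a rank correlation with that in WT of 0.82 in R787G, 0.85 in G1242V and 0.62 in the empty vector, a description across genes that share each library. The members also varied little among replicates: the median within-group SD was 0.065 on the log2 scale, against 0.120 over all features, with the lowest for PRE4 (0.038) and the highest for RPN4 (0.154). The members are more abundant than most features, and their spread was not compared with that of genes of like level.

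**Figure D3:**
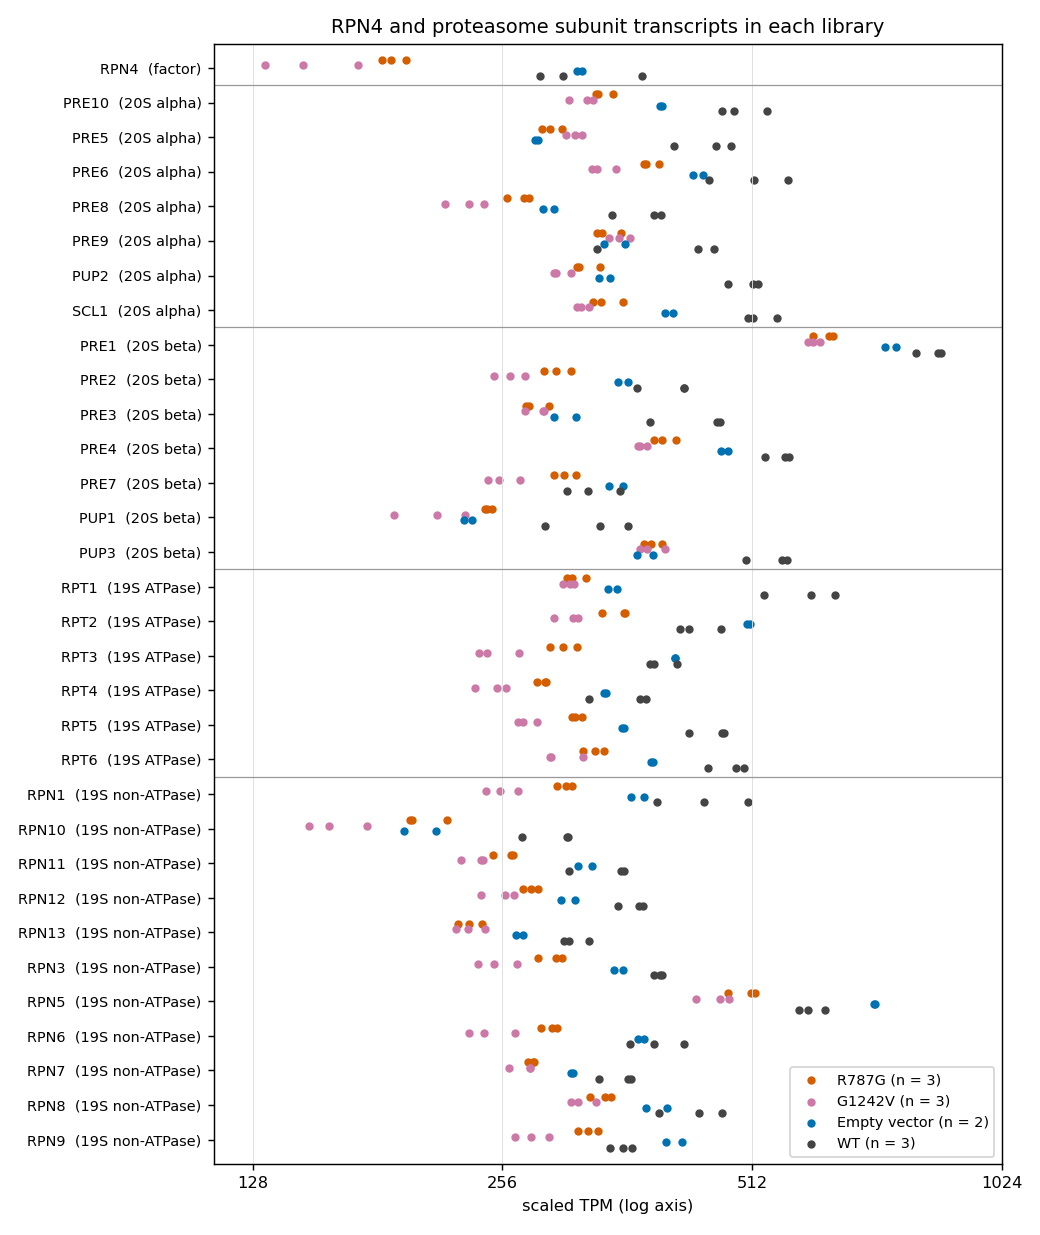
Scaled TPM (x axis, log scale) of RPN4 and each subunit gene (rows, by class) in every library, coloured by group. PRE1 stands to the right of the other subunit genes, with RPN5 next in R787G, G1242V and the empty vector, and RPN10 at the left. In WT replicates 1 and 2, RPT1 lies right of RPN5. WT is right of R787G and G1242V in most rows.

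The alpha subunits build the outer rings of the core. In R787G, 6 of 7 were lower than in WT with a median of -0.56, in G1242V 6 of 7 with a median of -0.63, and in the empty vector 5 of 7 with a median of -0.36. Over all features, 29.3%, 27.3% and 25.2% were lower in these groups. In the empty vector only the calls of PRE5 and PUP2 held under every scaling. Those of PRE8, PRE10 and SCL1 were lost with TPM as deposited and with TPM rescaled to protein-coding genes. PUP2, the alpha subunit with the largest fall in both variants, was at 316, 336 and 315 scaled TPM in R787G, 295, 309.9 and 297 in G1242V, 334 and 345 in the empty vector, and 514, 520.1 and 478 in WT. Every WT library was above every other library. Its log2 difference from WT was -0.64 ± 0.060 in R787G (adjusted p = 1.22e-05 by limma), -0.74 ± 0.060 in G1242V (adjusted p = 7.92e-06) and -0.57 ± 0.067 in the empty vector (adjusted p = 6.69e-05).

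PRE5, another alpha subunit and 1 of the 6 members without PACE letters, fell most in the empty vector among the core genes. Its scaled TPM were 286, 302 and 292 in R787G, 313, 305 and 319 in G1242V, 283 and 280.1 in the empty vector, and 464, 412 and 483 in WT. WT again lay apart, and the empty vector held the lowest libraries. The log2 difference from WT was -0.62 ± 0.068 in R787G (adjusted p = 3.39e-05 by limma), -0.53 ± 0.068 in G1242V (adjusted p = 1.33e-04) and -0.68 ± 0.076 in the empty vector (adjusted p = 4.62e-05).

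PRE9, the alpha subunit that yeast can live without, was the 1 member that passed in no comparison. It was at 337, 356 and 333 scaled TPM in R787G, 354, 344 and 365 in G1242V, 339.6 and 359.6 in the empty vector, and 441, 333 and 461 in WT. WT replicates 1 and 3 lay above all other libraries, and WT replicate 2 lay among them. The log2 difference from WT was -0.25 ± 0.11 in R787G (adjusted p = 0.0648 by limma), -0.20 ± 0.11 in G1242V (adjusted p = 0.147) and -0.22 ± 0.12 in the empty vector (adjusted p = 0.141). Without WT replicate 2 the differences were -0.40 (adjusted p = 5.99e-04), -0.35 (adjusted p = 0.00176) and -0.37 (adjusted p = 0.00167). The other alpha genes, PRE6, PRE8, PRE10 and SCL1, were lower in both variants with log2 differences of -0.40 to -0.71.

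The beta subunits form the inner rings. Of 7, 6 were lower than in WT in R787G (median -0.44), 7 in G1242V (median -0.55) and 4 in the empty vector (median -0.22). Over all features, 29.3%, 27.3% and 25.2% were lower in these groups. The genes of the catalytic subunits, PRE3 (caspase-like site), PUP1 (trypsin-like site) and PRE2 (chymotrypsin-like site), differed from WT by -0.64 ± 0.081, -0.41 ± 0.095 and -0.44 ± 0.070 in R787G, and by -0.63 ± 0.081, -0.63 ± 0.095 and -0.63 ± 0.070 in G1242V, and all 6 differences passed. In the empty vector PRE3 (-0.52 ± 0.090, adjusted p = 7.06e-04 by limma) and PUP1 (-0.49 ± 0.11, adjusted p = 0.00265) were lower than in WT, while PRE2 was at -0.18 ± 0.078 (adjusted p = 0.0693). Of the 4 lower calls in the empty vector, those of PUP1 and PRE4 did not hold under every scaling. Of the structural subunits PRE1, PRE4, PRE7 and PUP3, PRE7 moved least.

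PRE7 was at 304, 314 and 295 scaled TPM in R787G, 254, 269 and 246 in G1242V, 344 and 357 in the empty vector, and 355, 306 and 325 in WT. G1242V was the lowest group and the other groups overlapped, except R787G with the empty vector. The log2 difference from WT was -0.11 ± 0.069 in R787G (adjusted p = 0.195 by limma), -0.36 ± 0.069 in G1242V (adjusted p = 0.00169) and 0.10 ± 0.078 in the empty vector (adjusted p = 0.302). PRE7 was higher in the empty vector than in WT with TPM as deposited (0.33, adjusted p = 0.00556). It was also higher there with TPM rescaled to protein-coding genes (0.36, adjusted p = 0.00233) and with quantile normalization (0.23, adjusted p = 0.025). R787G was above G1242V by 0.25 ± 0.069 (adjusted p = 0.0156).

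The 6 ATPases form the ring that unfolds substrates. All 6 were lower than in WT in R787G (median -0.46) and in G1242V (median -0.67), while in the empty vector 3 were lower, RPT2 was higher and 2 did not pass. Over all features, 29.3%, 27.3% and 25.2% were lower in these groups, and 36.8% higher in the empty vector. The calls of RPT5 and RPT6 in the empty vector were lost with TPM as deposited and with TPM rescaled to protein-coding genes. RPT1 had the largest fall of all subunit genes in each of these comparisons. Its scaled TPM were 306, 323 and 311 in R787G, 303, 312 and 309 in G1242V, 352 and 343 in the empty vector, and 602, 645 and 529 in WT. The 8 libraries of the other groups lay below the WT libraries, and both empty-vector libraries lay above those of the variants. RPT1 fell 1.88-fold in R787G (-0.91 ± 0.075, adjusted p = 5.76e-06 by limma), 1.91-fold in G1242V (-0.94 ± 0.075, adjusted p = 7.73e-06) and 1.70-fold in the empty vector (-0.76 ± 0.084, adjusted p = 4.34e-05), each against WT, and did so under all 23 alternatives. Against the empty vector, RPT1 differed by -0.15 ± 0.084 in R787G (adjusted p = 0.178) and -0.17 ± 0.084 in G1242V (adjusted p = 0.0963). Both differences passed with TPM as deposited (-0.29, adjusted p = 0.0288, and -0.43, adjusted p = 0.00201, by limma). They also passed with TPM rescaled to protein-coding genes and with quantile normalization.

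RPT2 was at 359.7, 358 and 338 scaled TPM in R787G, 295, 316 and 311 in G1242V, 504 and 509 in the empty vector, and 430.0, 470.1 and 419 in WT. The 4 groups did not overlap, with G1242V lowest and the empty vector highest. The log2 difference from WT was -0.32 ± 0.065 in R787G (adjusted p = 0.00165 by limma), -0.51 ± 0.065 in G1242V (adjusted p = 1.24e-04) and 0.21 ± 0.073 in the empty vector (adjusted p = 0.031, over its alternatives 0.00106 to 0.132). RPT3, another ATPase of the ring, was at 303, 315 and 292 scaled TPM in R787G, 245, 268 and 239.6 in G1242V, 414 and 413 in the empty vector, and 415, 390.2 and 385 in WT. Both variants were below the other groups, and with this scaling the empty vector lay within the WT range (0.06 ± 0.072, adjusted p = 0.493). RPT3 was higher in the empty vector than in WT with TPM as deposited (0.29, adjusted p = 0.0102 by limma). It was also higher there with TPM rescaled to protein-coding genes (0.33, adjusted p = 0.00568) and with quantile normalization (0.26, adjusted p = 0.0216). RPT3 was lower in both variants than in the empty vector, by -0.45 ± 0.072 in R787G (adjusted p = 0.00174) and -0.72 ± 0.072 in G1242V (adjusted p = 3.59e-05). RPT4, RPT5 and RPT6 were lower than in WT by -0.33 to -0.54 in R787G and by -0.53 to -0.74 in G1242V.

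The 11 other genes of the 19S particle cover scaffolds, ubiquitin receptors and the deubiquitinase. In R787G 10 of 11 were lower than in WT (median -0.41), in G1242V 11 of 11 (median -0.52), and in the empty vector 5 were lower, 2 higher and 4 did not pass (median -0.16). Over all features, 29.3%, 27.3% and 25.2% were lower in these groups, and 36.8% higher in the empty vector. There, RPN1, RPN7, RPN12 and RPN13 lost their calls with TPM as deposited, with TPM rescaled to protein-coding genes and with quantile normalization. RPN10 lost its call with the rescaled TPM (adjusted p = 0.0515 by limma). Of the proteins that bind ubiquitin or shuttle factors, the scaffold RPN1 differed from WT by -0.55 ± 0.088 in R787G and -0.81 ± 0.088 in G1242V, RPN10 by -0.52 ± 0.084 and -0.87 ± 0.084, and RPN13 by -0.42 ± 0.059 and -0.42 ± 0.059, and all of them passed. RPN11, the deubiquitinase of the lid, and its partner RPN8 were lower by -0.39 ± 0.071 and -0.37 ± 0.074 in R787G, and by -0.52 ± 0.071 and -0.45 ± 0.074 in G1242V. The lid scaffolds RPN3, RPN6, RPN7 and RPN12 differed from WT by -0.35 to -0.42 in R787G and by -0.39 to -0.67 in G1242V.

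RPN5 and RPN9, also lid scaffolds, went another way in the empty vector. RPN5 was at 517, 511 and 479 scaled TPM in R787G, 438, 468 and 481 in G1242V, 719 and 719.9 in the empty vector, and 584, 626 and 598 in WT. The variants were lowest, WT in between and the empty vector highest, without overlap of the variants with either. Its log2 difference from WT was -0.26 ± 0.065 in R787G (adjusted p = 0.00506 by limma), -0.38 ± 0.065 in G1242V (adjusted p = 7.66e-04) and 0.26 ± 0.073 in the empty vector (adjusted p = 0.0117, over its alternatives 4.80e-04 to 0.0656). RPN9 was at 325, 334 and 316 scaled TPM in R787G, 277, 292 and 265 in G1242V, 403 and 422 in the empty vector, and 358, 345 and 367 in WT, with 4 groups that did not overlap. Its log2 difference from WT was -0.13 ± 0.060 in R787G (adjusted p = 0.0742), -0.36 ± 0.060 in G1242V (adjusted p = 6.95e-04) and 0.21 ± 0.068 in the empty vector (adjusted p = 0.0214, over its alternatives 2.68e-04 to 0.147).

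The balance between classes can be read within a library, as the mean of a class minus the mean of all 31 subunit genes on the log2 scale. The alpha class stood at 0.040 ± 0.022 in R787G, 0.096 ± 0.029 in G1242V, -0.047 ± 0.0028 in the empty vector and 0.105 ± 0.016 in WT (SD, n = 3, 3, 2 and 3). Both empty-vector libraries were below all 9 others. The 19S genes that are not ATPases stood at -0.110 ± 0.013 in R787G, -0.138 ± 0.012 in G1242V, -0.061 ± 0.0078 in the empty vector and -0.169 ± 0.023 in WT, with both empty-vector libraries above all others. The beta class and the ATPases of the empty vector overlapped WT. Gene by gene, the empty vector differed from WT most in RPN5 (0.50 higher relative to the subunit mean), RPT2 and RPN9 (each 0.45 higher) on one side, and in RPT1 (-0.52), PRE5 (-0.44) and PUP2 (-0.33) on the other. None of these 6 overlapped between the groups, but neither did most of the 31 subunit genes. No test was run on these relative values.

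**Figure D4:**
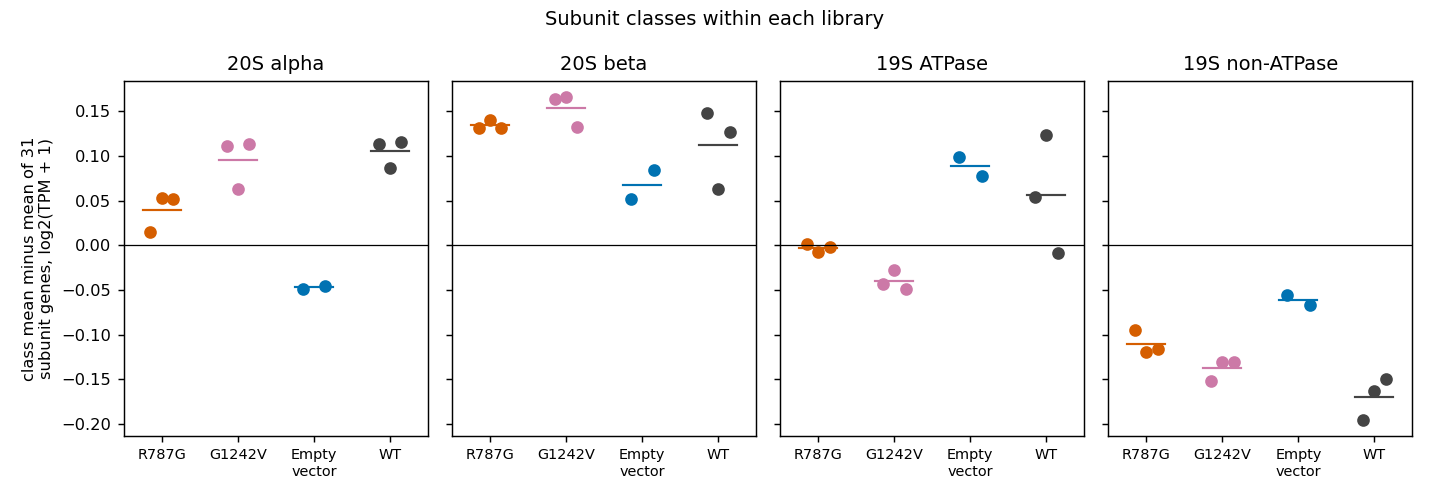
Mean of each subunit class minus the mean of all 31 subunit genes on the log2(TPM + 1) scale, 1 point a library, by group, with the group mean as a line. In the empty vector the alpha class is the lowest and the 19S non-ATPase class the highest of the 4 groups.

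Set directly against the empty vector, the variants had less of many subunit messages. In R787G 18 of the 32 members were lower than in the empty vector and 0 higher, where 23% of all features were lower and 16.9% higher, and the median was -0.23 against -0.05 over all features. The count of 18 fell to 10 without R787G replicate 1, 8 without R787G replicate 3, 5 without empty-vector replicate 1 and 6 without empty-vector replicate 2, and reached 28 with TPM rescaled to protein-coding genes or quantile normalization. RPT2, RPT3, RPN5, RPN9 and RPN4 were lower under every alternative. In G1242V 26 of the 32 members were lower than in the empty vector and 0 higher, where 37.4% of all features were lower and 25.6% higher, and the median was -0.34 against -0.09 over all features. RPT2 and RPT3 had the largest differences among the subunit genes, each -0.72, with SE of 0.073 and 0.072 (adjusted p = 3.61e-05 and 3.59e-05 by limma). With the scaling used here, PRE3, PRE5, PRE9, PUP1, PUP3 and RPT1 passed in neither of these comparisons. At an unadjusted p under 0.05, too, 0 members were higher in either variant than in the empty vector. The comparisons with the empty vector share its 2 libraries, and those with WT share its 3.

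Between the variants, R787G had more of some members. 13 of the 32 were higher in R787G than in G1242V and 0 were lower, where 26.3% of all features were higher and 19.9% lower, and the median was 0.13 against 0.05. At an unadjusted p under 0.05, too, 0 were lower. The largest differences were those of RPN10 (0.35 ± 0.084, adjusted p = 0.00816 by limma), RPN4 (0.34 ± 0.12, adjusted p = 0.0377) and RPT3 (0.27 ± 0.065, adjusted p = 0.00763). RPN10 and RPT3 passed under all 23 alternatives. The count fell to 4 without R787G replicate 1, 2 without R787G replicate 2, 8 without R787G replicate 3, 7 without G1242V replicate 1 or 3 and 7 without either empty-vector library, and was 24 with TPM as deposited.

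Members with and without the PACE letters can be set side by side. In R787G 23 of the 26 members with PACE letters and 6 of the 6 without were lower than in WT, with medians of -0.43 and -0.47. In G1242V these counts were 25 of 26 and 6 of 6, with medians of -0.61 and -0.58. In the empty vector they were 13 of 26 and 4 of 6 with the scaling used here, with medians of -0.22 and -0.35, and the 3 higher members all had the letters. RPN4 is 1 of the 6 without the letters. The 5 subunit genes without them had medians of -0.42 in R787G, -0.53 in G1242V and -0.49 in the empty vector. The difference between members with and without the letters was not tested.

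Other genes of the pathway were taken from lists made by function. Over all features tested, 29.3% were lower and 36.5% higher than in WT in R787G, and 27.3% and 26.6% in G1242V. In the empty vector 25.2% of all features were lower and 36.8% higher than in WT. Of 7 genes for further subunits and proteins that bind the proteasome, 5 were lower than in WT in R787G, 6 in G1242V and 3 in the empty vector, and 0 were higher. In the empty vector, 1 was lower and 1 higher with TPM as deposited, and 1 lower and 2 higher with TPM rescaled to protein-coding genes, FUB1 among the higher in both (0.43, adjusted p = 0.00162, and 0.47, adjusted p = 9.84e-04, by limma). ECM29, whose product ties the core to the regulatory particle, differed from WT by -0.85 ± 0.076 in R787G, -1.08 ± 0.076 in G1242V and -0.81 ± 0.085 in the empty vector. BLM10, the gene of an alternative cap of the core, differed by -0.68 ± 0.079, -1.11 ± 0.079 and -0.47 ± 0.089. The 19S subunit gene SEM1 was lower in all 3 groups, while RPN2 was at -0.10 ± 0.12 in R787G, -0.31 ± 0.12 in G1242V (adjusted p = 0.0486 by limma, and 0.0609 when the scaling left out ribosomal protein genes) and -0.02 ± 0.13 in the empty vector. RPN2 lies on chromosome IX, and R787G replicate 3 held 433 scaled TPM of it against 319 and 321 in the other R787G libraries. No member lies on that chromosome. With TPM as deposited or rescaled to protein-coding genes, the calls of SEM1 and BLM10 in the empty vector were lost and that of ECM29 was kept, and that of SEM1 was also lost with quantile normalization.

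The assembly chaperones, which build the particle and leave it, did not move as one. Of 10, 6 were lower and 1 higher than in WT in R787G, 3 lower and 3 higher in G1242V, and 3 lower in the empty vector. With TPM as deposited the counts were 3 lower and 1 higher in R787G, 3 lower and 1 higher in G1242V, and 1 lower and 4 higher in the empty vector. Over all features with the scaling used here, 29.3% were lower and 36.5% higher in R787G. In G1242V 27.3% were lower and 26.6% higher, and in the empty vector 25.2% were lower. The list's counts in G1242V, and of lower genes in the empty vector, are near these shares. In R787G as deposited, 23.6% of all features were lower, near the list's 3 of 10. As deposited, 14.8% of all features were lower in the empty vector, and 78.3% of all calls there were higher. UMP1, the maturation factor of the core, fell by 0.75 ± 0.091 in R787G and by 0.82 ± 0.091 in G1242V on the log2 scale, and POC4, of an alpha-ring chaperone pair, was 0.51 ± 0.11 and 0.71 ± 0.11 higher. TMA17, the stress-inducible chaperone of the ATPase ring, was at 180.2, 183 and 160.3 scaled TPM in R787G, 323, 323 and 419.8 in G1242V, 184 and 182 in the empty vector, and 292, 337 and 353 in WT. R787G and the empty vector lay far below G1242V and WT, which overlapped. TMA17 was lower in R787G than in G1242V by -1.01 ± 0.11 (adjusted p = 3.04e-04 by limma).

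Among 18 genes for ubiquitin, its conjugation and the delivery of substrates, 14 were lower and 1 higher than in WT in R787G, 14 lower and 0 higher in G1242V, and 7 lower and 1 higher in the empty vector (3 lower and 6 higher with TPM as deposited). Over all features, 29.3%, 27.3% and 25.2% were lower in these groups, and 36.5%, 26.6% and 36.8% higher. As deposited, 14.8% of all features were lower in the empty vector, and 78.3% of all calls there were higher. UBC5, a stress-induced ubiquitin-conjugating enzyme, was at 133, 131 and 121 scaled TPM in R787G, 143, 154 and 188 in G1242V, 178 and 171 in the empty vector, and 399.8, 436 and 332 in WT. All 8 libraries of the other groups were below the WT libraries. Its log2 difference was -1.58 ± 0.12 in R787G, -1.26 ± 0.12 in G1242V and -1.14 ± 0.13 in the empty vector. UBC4 is a close copy of UBC5, so the split of reads between them is an estimate. The shuttle genes DDI1, DSK2 and RAD23 and the deubiquitinase gene DOA4 were lower than in WT in both variants. RAD6, an enzyme that works with the ligase Ubr2, was higher in R787G (0.18 ± 0.059, adjusted p = 0.0235 by limma) and in the empty vector (0.55 ± 0.066, adjusted p = 6.73e-05).

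UBR2 and MUB1, the ligase of Rpn4 and its adaptor, were both lower than in WT in all 3 groups. UBR2 differed by -0.75 ± 0.075 in R787G, -0.91 ± 0.075 in G1242V and -0.40 ± 0.083 in the empty vector, and MUB1 by -0.58 ± 0.071, -0.57 ± 0.071 and -0.36 ± 0.079. The activator genes HSF1, YAP1, PDR1 and PDR3 were also lower, 4 of 4 in each group, with medians of -0.81 in R787G, -1.02 in G1242V and -0.55 in the empty vector. Over all features, 29.3%, 27.3% and 25.2% were lower in these groups, and 14.8% in the empty vector with TPM as deposited. YAP1, with the most message of the 4, was at 193, 192 and 185 scaled TPM in R787G, 154, 169 and 178 in G1242V, 233 and 237 in the empty vector, and 374, 428 and 355 in WT, with WT above all others. In the empty vector, the calls of UBR2, MUB1, HSF1 and PDR3 were lost with TPM as deposited and with TPM rescaled to protein-coding genes, and those of YAP1 and PDR1 were kept.

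**Figure D5:**
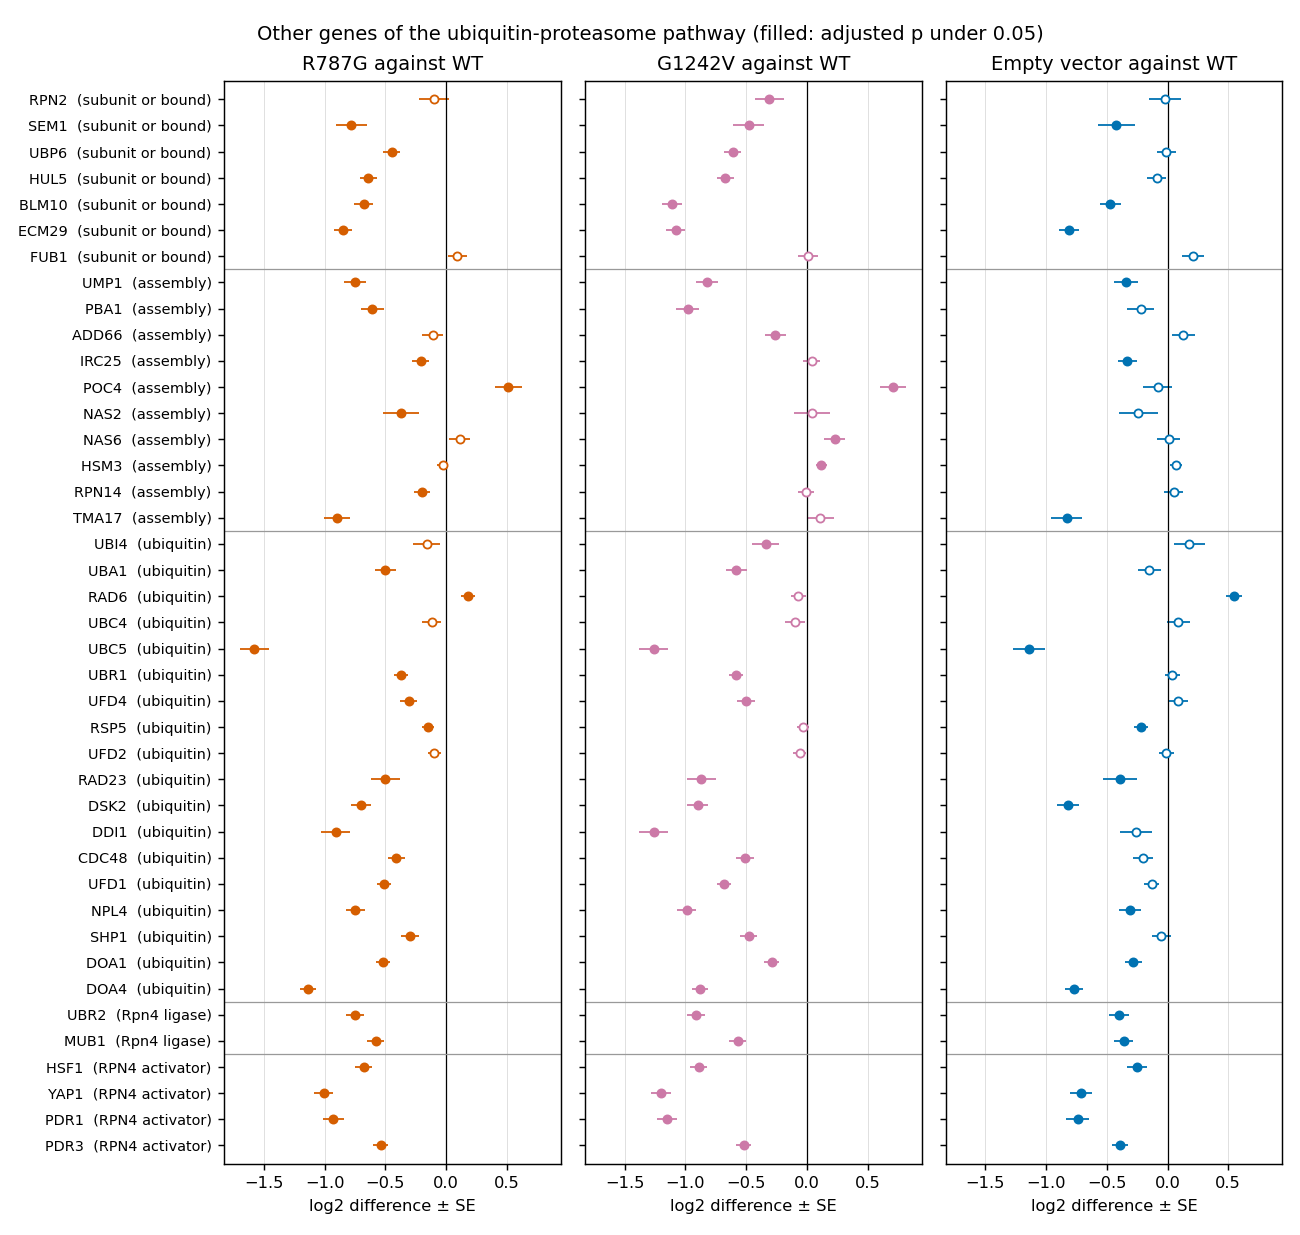
Log2 differences from WT (x axis, bars are the SE of the limma fit) of 41 other genes of the ubiquitin-proteasome pathway (rows, by list) in R787G, G1242V and the empty vector. Filled points have an adjusted p under 0.05; POC4 stands right of 0 in both variants, and TMA17 is left of 0 in R787G and the empty vector.

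Across the 11 libraries, the genes whose log2 levels followed the mean of the subunit genes most closely, among 5189 compared, were MAG1 (Pearson r = 0.990), DCK1 and SHC1 (0.985), HSP30 and UBR2 (0.984), IRC20 and NPL4 (0.982), REH1 (0.981), APP1 and SDH9 (0.980). The 11 points share 4 groups, so these values mostly restate the group means. DCK1 is the neighbour of RPN13, with 336 bases between them, and SHC1 lies 2351 bases from PUP3. SDH9 alone among the 10 had PACE letters in its promoter. Among the members themselves, r with the subunit mean ran from 0.556 for PRE9 to 0.995 for RPT6, and RPN4 had 0.904.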

How the data were processed

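The labels' protocols name stranded libraries from ribo-depleted total RNA, sequenced in 50 bp single-end runs. The submitters' processing notes list bcl2fastq 2.17, STAR, RSEM and edgeR with the sacCer3 build. Annotation, strand setting and further versions were not given in the sources used here. Deposited by the authors were TPM, 1 column a library, named by culture. No other gene of the RefSeq annotation overlapped a member.

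Of 7036 rows, 1 was shifted and left out. Each library's TPM were divided by its median ratio to the geometric mean of the libraries, taken over genes at 10 TPM or more throughout (multiplying factors 0.964 to 0.999 in R787G, 1.04 to 1.08 in G1242V, 0.882 and 0.900 in the empty vector, 1.03 to 1.06 in WT). The log2(scaled TPM + 1) of features that reached 1 TPM in 2 libraries or more entered limma (version 3.58.1, under R 4.3.3), with a trend in eBayes and two-sided tests. All 11 libraries entered 1 fit without covariates, with 6 comparisons and an F test. Fold changes are on this scale and understate those of low genes. On simulated data 88.5% to 92.5% of genes changed by 1 and 50.5% to 59% of those changed by 0.5 on the log2 scale were recovered in the comparisons with WT, with 4.67% to 7.04% of calls false. In the simulation 200 of 6432 genes changed, the noise was independent between genes, and the scaling was not redone. In these data 54% to 65.8% of features were called against WT, so the simulated rates need not hold for them. Alternatives covered the scaling, pseudocount, filter, variance model, samples fitted, a replicate block and each library left out. All members are named; of other genes, those of the lists and the 10 most like the subunit mean. The members and lists were chosen with earlier results of these data known. Python 3.11.15, numpy 2.4.6, pandas 2.3.3 and matplotlib 3.10.9 were used.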

Additional observations from a re-analysis of the deposited data

How the results depend on the processing

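The member median with TPM as deposited, with TPM rescaled to protein-coding genes and with quantile normalization was 0.01, 0.05 and -0.08 in the empty vector against WT, -0.36, -0.46 and -0.50 in R787G against the empty vector, -0.60, -0.68 and -0.81 in G1242V against the empty vector, and 0.25, 0.23 and 0.30 in R787G against G1242V. In the order of these scalings, members lower in the empty vector than in WT were 6, 5 and 9, members higher there 5, 5 and 6, and members higher in R787G than in G1242V 24, 21 and 26. Members lower in R787G than in the empty vector were 28 with the rescaled TPM and 28 with quantile normalization. Against WT, the R787G median was -0.33 as deposited and -0.56 with quantile normalization, and the G1242V median -0.68 rescaled and -0.90 with quantile normalization. With the share taken of all TPM, the difference in the subunit share was -0.29 percentage points in R787G and -0.45 in G1242V, against WT and against the empty vector alike. Where only the groups compared were fitted, 0 members were higher in the empty vector than in WT.

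Between the empty vector and WT, as deposited and rescaled, PRE4 turned to 0.01 and 0.05, RPN13 to 0.01 and 0.05, RPN7 to 0.04 and 0.08, RPN1 and RPN12 to 0.01 (rescaled only), and PRE1 to 0.23 with quantile normalization. Against the empty vector, PUP3 turned to -0.20 (rescaled) and -0.23 (quantile) in R787G. In G1242V, PUP3 turned to -0.23, -0.31 and -0.44 under the 3 scalings, PRE5 to -0.19 and -0.25 and PRE9 to -0.32 and -0.41 (rescaled, quantile). The cause was not tested beyond the scaling itself. Of 4416 values of members under alternatives, 119 gained a call, 205 lost one and 18 turned direction with a call on either side. The other 4074 kept their side of the threshold. Turns of sign with no call on either side are counted among these 4074. In the empty vector against WT, for example, RPN4 was at -0.01 and reached 0.26 under an alternative.

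With each library left out in turn, members lower were 29 to 30 (median -0.47 to -0.41) in R787G and 31 to 32 (-0.63 to -0.57) in G1242V against WT. In the empty vector against WT they were 12 to 19, with 0 to 3 higher (-0.23 to -0.20). Against the empty vector they were 5 to 21 in R787G (-0.24 to -0.20) and 21 to 27 in G1242V, with 0 to 1 higher (-0.38 to -0.33). Members higher in R787G than in G1242V were 2 to 15 (0.11 to 0.16). RPN4 minus the subunit mean differed by -0.37 to -0.18 in R787G and -0.62 to -0.38 in G1242V against WT, by 0.16 to 0.36 in the empty vector against WT, by -0.56 to -0.52 in R787G and -0.85 to -0.66 in G1242V against the empty vector, and by 0.13 to 0.31 in R787G against G1242V. In percentage points, the share of protein-coding TPM in the subunit genes differed by -0.51 to -0.43, -0.71 to -0.63, 0.01 to 0.09, -0.54 to -0.49, -0.75 to -0.69 and 0.17 to 0.24 in the same order.

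In their deviations from the group means, same-numbered libraries of different groups correlated by -0.159 to 0.274 over 15 pairs. Pairs with different numbers correlated by -0.384 to 0.3. Deviations from means of 2 or 3 libraries are tied to one another, so whether a number marks a shared batch cannot be told from this. With the replicate block, 1 member was higher in the empty vector than in WT, against 3 without it. Lower in R787G than in the empty vector were 12, against 18 without it.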

Other observations

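The PACE letters GGTGGCAAA stood in the promoters of 47 genes that are not members, 46 of which were tested. Of these, 31 were lower and 3 higher than in WT in R787G, 36 lower and 1 higher in G1242V, and 18 lower and 9 higher in the empty vector (10 lower and 15 higher with TPM as deposited), with medians of -0.41, -0.53 and -0.19. Over all features, 29.3%, 27.3% and 25.2% were lower in these groups, and 36.5%, 26.6% and 36.8% higher. For 8 of the 47 the site is also in the promoter of a member. Without these, 26 of 38 genes were lower and 1 higher than in WT in R787G, 32 lower and 0 higher in G1242V, and 16 lower and 7 higher in the empty vector. Genes of protein quality control were among them: CDC48, the segregase that pulls tagged proteins out of complexes, was at -0.41 in R787G, -0.51 in G1242V and -0.20 in the empty vector, and UBA1, the ubiquitin-activating enzyme, at -0.50, -0.58 and -0.15. SGT2, a co-chaperone of tail-anchored proteins, was at -0.39, -0.65 and 0.06. All of these differences passed in R787G and G1242V by limma, and none in the empty vector with the scaling used here. SGT2 was higher in the empty vector than in WT with TPM as deposited (0.29, adjusted p = 0.0283 by limma), with TPM rescaled to protein-coding genes (0.33, adjusted p = 0.0198) and with quantile normalization (0.45, adjusted p = 0.00762). CDC48, UBA1 and SGT2 were picked after their values were seen.

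NOP14 and PMT1, which share a site with a member and were also picked after their values were seen, were higher in R787G: NOP14, a factor of small ribosomal subunit assembly, was 0.87 above WT (adjusted p = 2.47e-04 by limma), and PMT1, a mannosyltransferase of the endoplasmic reticulum, 0.43 above WT (adjusted p = 2.56e-04). In G1242V they were at -0.13 (adjusted p = 0.422) and 0.29 (adjusted p = 0.00333, and 0.0687 with quantile normalization), and in the empty vector they were 0.85 and 0.48 higher than in WT.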
